A study of Mus musculus with 8 samples.

Results

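BRG1 occupancy was compared between 2 libraries of mouse embryonic fibroblasts (MEFs) on day 5 of reprogramming, through the peaks and summits called from each. The members are all peaks of the libraries made with the antibody to Smarca4 (BRG1), 30859 peaks in cells given wild-type Nanog with Oct4 and 53748 peaks in cells given the fusion with Oct4, 84607 of the 425777 peaks in the series. The labels name the arms Nanog+Oct4 and NanogN70+Oct4, and they are called NanogWT and NanogBiD here, the identity of the latter being taken from the study's text. NanogBiD is Nanog fused to the N-terminal domain of SS18 through which that protein binds BRG1. Both factors were delivered by pMXs retroviral vectors to OG2 MEFs, which carry an Oct4-GFP reporter allele, so that every cell population compared held that allele, exogenous Oct4 and a FLAG-tagged form of exogenous NANOG. A transduced population holds cells at different stages of reprogramming, and fewer cells with a bound site cannot be told apart from less binding per cell. The assay was CUT&Tag, in which an antibody brings a transposase to its target and the DNA nearby is cut and tagged. Each arm had 1 library, merged by the authors from replicates whose number is not stated for this assay beyond the study's general statement that experiments were repeated, so no difference between arms can be set against the spread between cultures.

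BRG1, the product of Smarca4, is the ATPase of the BAF complex, which uses ATP to slide and evict nucleosomes. BAF is found at active promoters and above all at enhancers, where transcription factors bring it and where it keeps DNA accessible. SS18 is one of its subunits. H3K27ac, acetylation of lysine 27 on histone H3, marks active promoters and enhancers, and H3K4me1 marks enhancers whether active or not. The latter target is called H3K4me1 here after the study's text, which names an antibody to it.

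Overlapping or adjoining peaks of the 2 arms were joined into 1 region, which counted as shared where both arms contributed a peak and as found in 1 arm alone otherwise. The summit height of a peak is the number of tags piled up at its highest point and its score is the peak caller's significance value, neither of which was scaled to depth. Shares are given with Wilson 95% intervals, which cover counting error only. Since the NanogBiD list was the longer and the depth of both libraries is unknown, the main comparisons were repeated at equal list size, with the 30859 highest-scoring NanogBiD peaks, all of which scored at least 94.1.

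The strongest sites found in a single arm away from promoters are shown first, because they are the clearest examples of the difference between arms. Each line gives the summit and 50 bases either side on the plus strand of mm10, for the 3 highest-scoring regions of each arm alone, none of which lay within 2 kb of a start site. Capitals mark matches on either strand to 4 patterns, which are TGANTCA (AP-1), ATGCAAAT (OCT octamer), TAATGG (NANOG core) and ACAATG or ACAAAG (SOX factors).
Zfhx3 intron, NanogBiD only (chr8:108455100-108455200): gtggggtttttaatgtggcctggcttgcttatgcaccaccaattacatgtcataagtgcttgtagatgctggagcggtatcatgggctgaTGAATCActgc
Chl1 intron, NanogBiD only (chr6:103585534-103585634): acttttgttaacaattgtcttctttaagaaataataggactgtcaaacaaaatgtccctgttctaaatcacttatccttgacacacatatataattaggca
Btg1-distal intergenic site, NanogBiD only (chr10:96981265-96981365): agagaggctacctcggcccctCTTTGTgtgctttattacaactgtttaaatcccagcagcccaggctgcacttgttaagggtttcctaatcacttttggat
olfactory receptor cluster, NanogWT only (chr19:12012001-12012101): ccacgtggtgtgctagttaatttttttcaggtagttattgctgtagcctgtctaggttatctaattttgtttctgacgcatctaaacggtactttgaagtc
Fto intron, NanogWT only (chr8:91403790-91403890): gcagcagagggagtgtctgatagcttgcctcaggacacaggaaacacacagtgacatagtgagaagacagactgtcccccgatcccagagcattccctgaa
Cadps-distal intergenic site, NanogWT only (chr14:13001435-13001535): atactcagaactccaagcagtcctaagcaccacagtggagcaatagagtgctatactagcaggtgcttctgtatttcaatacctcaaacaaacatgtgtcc
The Zfhx3 site held an AP-1 match, the Btg1-distal site a SOX match, and the other 4 windows none of the 4 patterns.

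Of these 6 sites, the 3 found in NanogBiD alone had the taller summits. The Zfhx3 site lay in an intron of that gene, which encodes a zinc finger homeodomain factor, and had a summit of 39 tags and a score of 620.02. The Chl1 site lay in an intron of Chl1, a neural cell adhesion gene, with 30 tags, and the third was 364 kb from the nearest protein-coding start site, that of Btg1, with 30 tags. FLAG peaks of both arms overlapped all 3, and H3K27ac was in both arms at the first and the third and in NanogBiD alone at Chl1. The NanogWT sites had 28 tags near an olfactory receptor pseudogene, 19 tags in an intron of Fto, which encodes an RNA demethylase, and 15 tags 178 kb from Cadps. Their scores were 242.67, 223.22 and 220.25, all had FLAG peaks in both arms, and the site near Cadps had H3K27ac in NanogWT alone.

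Mir302a, Esrrb and Dppa5a, which the study took up for their part in reprogramming, had BRG1 regions found in NanogBiD alone outside exons. The tallest such site of each gene is shown in the same way.
Mir302a upstream site (chr3:127544766-127544866): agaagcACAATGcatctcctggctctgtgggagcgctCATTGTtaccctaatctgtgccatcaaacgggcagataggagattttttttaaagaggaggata
Esrrb intronic site (chr12:86395650-86395750): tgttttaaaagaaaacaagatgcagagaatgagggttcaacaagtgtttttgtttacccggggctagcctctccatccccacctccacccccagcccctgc
Dppa5a upstream site (chr9:78373303-78373403): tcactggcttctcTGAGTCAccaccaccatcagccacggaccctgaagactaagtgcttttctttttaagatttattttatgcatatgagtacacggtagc
The site at Mir302a, a microRNA of the miR-302/367 cluster of pluripotent cells, lay at -680 bp from its annotated start, where minus marks the upstream side, inside an intron of Larp7 on the opposite strand, and held a SOX match on each strand. Its summit was 18 tags in NanogBiD, with FLAG peaks in both arms and H3K27ac in NanogBiD alone. The other BRG1 region at this locus, at the Larp7 start, had 31 tags in each arm. The Esrrb and Dppa5a sites had 12 and 10 tags in NanogBiD and fell below the score of the equal list. Among the other genes taken up, Sox15 had a promoter peak in NanogWT alone. Sox2, Foxb1 and Olig3 had no BRG1 peak in either arm.

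The strong BRG1 sites of NanogWT were almost all found in NanogBiD too, while NanogBiD had many sites without a NanogWT peak. The lists merged into 59402 regions, of which 24738 (41.6%) were shared, 28776 (48.4%, 48.0 to 48.8) held a peak in NanogBiD alone and 5888 (9.91%, 9.67 to 10.2) in NanogWT alone. Cutting the NanogBiD list to equal size left 19275 shared regions, 11556 in NanogBiD alone and 11373 in NanogWT alone, and the cut itself fixes that the last 2 numbers are alike. Of those 11373 NanogWT regions, 5484 (48.2%) overlapped a NanogBiD peak of lower score that the equal list leaves out.

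The match between arms depended on rank in different ways. All 1000 of the highest-scoring NanogWT peaks had a NanogBiD peak, as did 99.8% of those ranked 1001 to 5000 and 98.4% of those ranked 5001 to 10000. Of the NanogBiD peaks at the same ranks, 95.6%, 87.5% and 76.3% had a NanogWT peak. With NanogBiD cut to equal list size, the NanogWT shares at these ranks were 100%, 99.3% and 91.7%, still above those of NanogBiD. At ranks 10001 to 20000 they were 63.2% in NanogWT and 61.6% in NanogBiD. The order turned at ranks 20001 to 30859, with 33.2% (32.3 to 34.1) in NanogWT and 44.9% (43.9 to 45.8) in NanogBiD. Over the whole lists of equal size 63.1% of NanogWT peaks and 62.6% of NanogBiD peaks were matched. The overall shares are near equal by construction, since 2 lists of equal size were set against each other, and the comparison lies in the ranks.

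**Figure D1:**
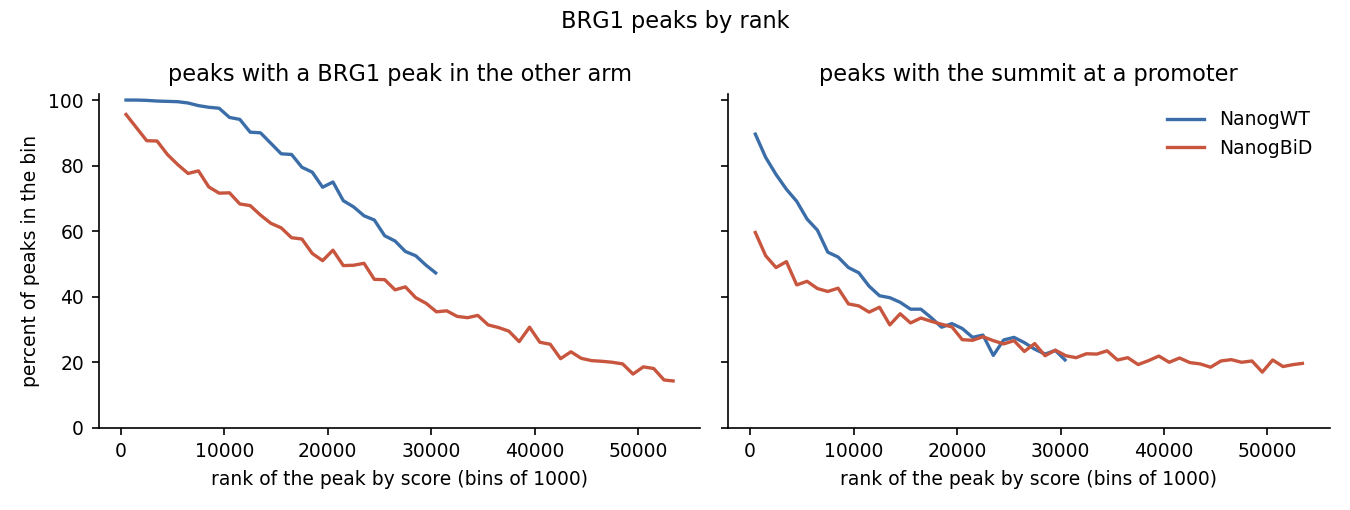
Share of BRG1 peaks with a peak in the other arm (left) and with the summit within 2 kb of a start site (right), in bins of 1000 peaks ranked by score, for NanogWT and NanogBiD. The NanogWT line stays near 100% over the first 10000 ranks on the left while the NanogBiD line falls from 95.6% in the first bin, and on the right the first bins stand at 89.6% and 59.6%.

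Sites found in NanogBiD alone were rarely at promoters. The summit lay within 2 kb of a start site in 42.9% (42.3 to 43.5) of NanogWT peaks and 28.7% (28.3 to 29.1) of NanogBiD peaks, and in 34.8% (34.3 to 35.3) of NanogBiD peaks at equal list size. By class, 46.6% of shared regions, 26.8% (25.7 to 27.9) of NanogWT-only regions and 13.0% (12.6 to 13.4) of NanogBiD-only regions were at promoters, beside the 10.9% of chromosomes 1 to 19 and X that lie this close to a start site. The shares were 49.2%, 31.9% and 10.7% with lists of equal size. Introns held 44.2% and intergenic sequence 40.2% of the NanogBiD-only regions. The difference was wide at the top of the lists, where 89.6% of the 1000 highest-scoring NanogWT peaks and 59.6% of the 1000 highest-scoring NanogBiD peaks were at promoters.

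The median distance to a protein-coding start site was 6.31 kb for shared regions, 13.9 kb for NanogWT-only regions and 33.4 kb for NanogBiD-only regions. The last was 41.2 kb at equal list size, which keeps the higher-scoring NanogBiD peaks. A start site lay within 500 bp of 36.6% of shared, 14.1% of NanogWT-only and 3.92% of NanogBiD-only regions, and more than 50 kb away from 20.3%, 23.7% and 41.4%.

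**Figure D2:**
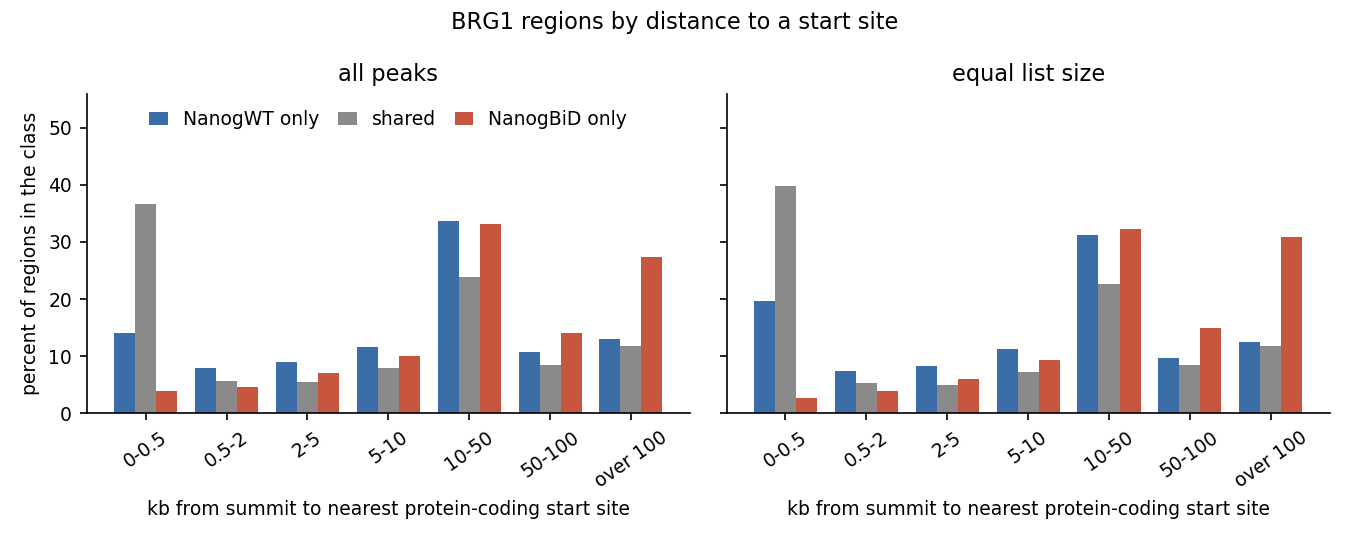
Percent of BRG1 regions of each class (bars) by distance from the summit to the nearest protein-coding start site in kb, with all peaks (left) and at equal list size (right). Shared regions have their tallest bar within 0.5 kb, at 36.6% with all peaks, and NanogBiD-only regions exceed the other classes beyond 50 kb.

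Sequence around the summit differed along with position. In windows of 250 bp either side, the median GC content away from promoters was 47.9% for NanogWT-only, 45.7% for shared and 42.5% for NanogBiD-only regions. At promoters the medians were 56.3%, 61.5% and 46.1%, and the observed over expected CpG ratio was 0.735 for shared and 0.270 for NanogBiD-only promoter regions. Peak numbers were higher in NanogBiD on chromosomes 1 to 19 and on X, and the ratio was lowest on chromosome 11, at 1.48.

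At regions shared by both arms, BRG1 summits had like heights in both arms at promoters and were taller in NanogBiD elsewhere. The median log2 ratio of NanogBiD over NanogWT was 0.00 at 11529 promoter regions, 0.30 at 6894 intronic and 0.32 at 5826 intergenic regions. The median summit was 12 tags in NanogWT and 16 in NanogBiD in introns and in intergenic sequence and was 17 tags in each arm at promoters. The NanogBiD summit was the taller at 70.0% of intergenic regions and 44.7% of promoter regions, where the NanogWT summit was the taller at 44.9%. All of these ratios come from the same pair of libraries, whose depths are unknown, and the part of depth in them was not tested.

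A summit at least 2-fold taller in NanogBiD was found at 1819 of the 24738 shared regions (7.35%), and one at least 2-fold taller in NanogWT at 115 (0.465%). The share 2-fold taller in NanogBiD was 1.77% at promoters, 11.6% in introns and 13.3% in intergenic sequence. A shared region needed a called peak in both arms, so a site with a large change could fall out of this class. Across the shared regions the summit heights of the 2 libraries had a Spearman correlation of 0.767 at promoters and 0.488 elsewhere, over 11529 and 13209 regions that share those libraries.

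**Figure D3:**
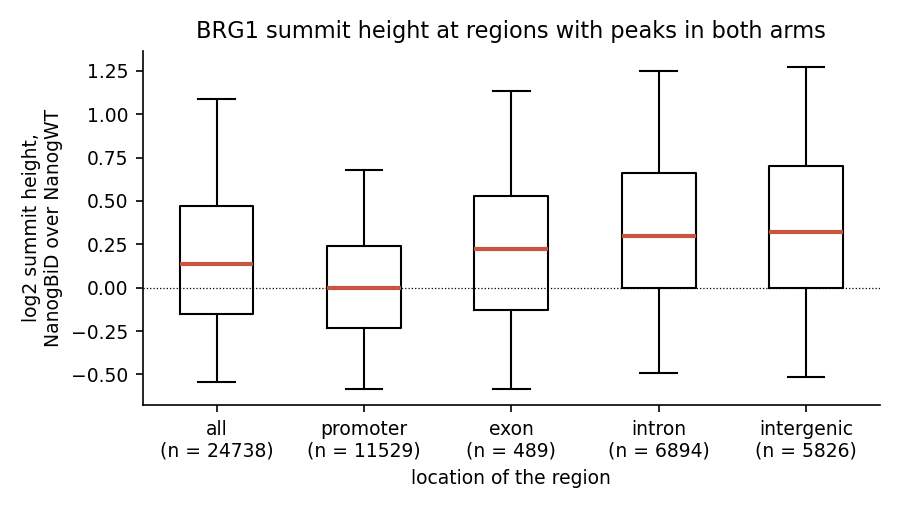
Log2 ratio of BRG1 summit height, NanogBiD over NanogWT, at shared regions by location, with the median (line), quartiles (box) and 5th and 95th percentiles (whiskers) over regions. The promoter box is centred on 0.00 and the intronic and intergenic medians stand at 0.30 and 0.32.

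Among shared regions with at least 20 tags in 1 arm, the 3 largest rises were all intergenic. The first, on chromosome 11 at 109907773 to 109909231, had 8 tags in NanogWT and 43 in NanogBiD, a log2 ratio of 2.43. The second, 13.1 kb from Rhoh, which encodes a small GTPase of blood cells, had 6 and 30 tags, and the third, 975 kb from Stim2, had 8 and 39. All 3 had FLAG peaks in both arms and H3K27ac in NanogBiD, and the first and second had no H3K27ac peak in NanogWT. Stk40 and Plec were among the largest falls, both inside the gene. The summit in Stk40, a kinase-like gene, went from 28 tags to 9, and that in Plec, which encodes the cytoskeletal linker plectin, from 29 to 10. At Stk40 the FLAG peak was present in NanogWT and not in NanogBiD.

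The highest-scoring shared regions were promoters with like heights in each arm. Leaving aside Gm26917, a locus of ribosomal RNA sequence with 129 tags in NanogWT and 163 in NanogBiD, the first were Ppp2r3d with 42 and 50 tags, Zbtb20 with 67 and 61, Nr1d2 with 45 and 49, and Sp1 with 48 and 54. Ppp2r3d encodes a phosphatase subunit, Nr1d2 a clock repressor, and Zbtb20 and Sp1 zinc finger transcription factors.

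Regions of a single arm had lower summits than shared ones, and the arms differed at the top. The median summit was 10 tags in NanogWT-only regions, beside 14 in shared regions of that arm, and 11 tags in NanogBiD-only regions, beside 16. Summits of at least 20 tags were found in 82 (1.39%) NanogWT-only and 2036 (7.08%) NanogBiD-only regions, and of at least 30 tags in 3 and 171. Beyond the sites already described, the 5 highest-scoring NanogBiD-only regions included an intronic site of Adamtsl1, an extracellular matrix gene, with 30 tags, and a second Zfhx3 site, 538 bp from a start site, with 41 tags. The 5 highest-scoring NanogWT-only regions included 1 at the start of Apobec3, a cytidine deaminase gene that restricts retroviruses, with 17 tags, and sites near Gm18705 with 21 tags and Gm31333 with 22 tags, both of which had FLAG and H3K27ac peaks in NanogWT and neither in NanogBiD.

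Peak width gave no direction that held. The median width was 990 bp in NanogWT and 886 bp in NanogBiD, but 1108 bp in NanogBiD at equal list size. Among peaks that scored at least 100 the medians were 1304 bp in NanogWT and 1132 bp in NanogBiD. At shared regions the medians were 1076 bp and 1153.5 bp, the summits of the arms lay a median of 97 bp apart, and the median log2 ratio of widths was -0.0055 at promoters and 0.19 in intergenic sequence. Peaks covered 35.5 Mb in NanogWT and 55.6 Mb in NanogBiD, and 39.0 Mb in NanogBiD at equal list size.

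Most BRG1 regions found in NanogBiD alone were also bound by the FLAG-tagged fusion. A FLAG peak of NanogBiD overlapped 87.4% (87.0 to 87.8) of NanogBiD-only regions, whereas a FLAG peak of NanogWT overlapped 51.6% (50.3 to 52.9) of NanogWT-only regions. The FLAG lists differ in length, 74782 peaks in NanogBiD and 58940 in NanogWT, and their part in this difference was not tested. At NanogBiD-only regions the FLAG peak was in both arms at 50.6% and in NanogBiD alone at 36.8%, so many sites with a BRG1 peak in NanogBiD alone had a NANOG peak with the wild-type factor too. Of NanogBiD-only regions, 9.06% had no FLAG peak in either arm, against 38.0% of NanogWT-only regions and 2.6% of shared regions. These shares were 0.787%, 24.3% and 0.607% at equal list size.

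Overlap with FLAG grew with the BRG1 summit. In NanogBiD-only regions it was 76.1% at 6 to 9 tags, 90.2% at 10 to 14, 97.2% at 15 to 19 and 98.4% at 20 tags or more. In NanogWT-only regions the same shares in NanogWT were 46.0%, 54.8%, 60.4% and 64.6%. Within each of these height classes the NanogBiD share was the higher, and at equal list size the overall shares were 98.5% and 63.6%.

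The comparison of acetylation between the classes turned with list size and location. H3K27ac of the same arm overlapped 40.1% (39.5 to 40.6) of NanogBiD-only and 50.1% (48.9 to 51.4) of NanogWT-only regions. With lists of equal size the shares were 57.3% and 59.1%. Away from promoters they were then 56.03% (55.1 to 57.0) and 52.5% (51.4 to 53.6), and at promoters 67.9% (65.2 to 70.4) and 73.0% (71.6 to 74.4). With all peaks the shares away from promoters were 38.0% and 45.5%, so the order there turned with list size. The H3K27ac lists were not cut and held 42598 peaks in NanogBiD and 35452 in NanogWT. The part of this in the H3K27ac shares was not tested. In NanogBiD-only regions the share was 24.1% at 6 to 9 tags, 39.1% at 10 to 14, 59.4% at 15 to 19 and 75.9% (74.0 to 77.7) at 20 tags or more. In NanogWT-only regions it was 38.8%, 56.9% and 69.1% in the first 3 of these classes and 64.6% (53.8 to 74.1) in the last, which held 82 regions and whose interval overlaps that of NanogBiD. H3K27ac was in NanogBiD alone at 25.8% and in NanogWT alone at 3.16% of NanogBiD-only regions, and it was in NanogWT alone at 19.5% and in NanogBiD alone at 8.41% of NanogWT-only regions. H3K27ac and BRG1 peaks of a single arm thus fell together more often in the same arm than in opposite arms, in both directions. At equal list size this did not hold for NanogWT-only regions at promoters, where H3K27ac was in NanogWT alone at 7.93% and in NanogBiD alone at 9.66%.

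Sites with FLAG but no acetylation were common in NanogBiD. FLAG without H3K27ac was found at 50.3% of NanogBiD-only and 17.7% of NanogWT-only regions, each in its own arm. H3K4me1 of the same arm overlapped 42.6% of NanogBiD-only and 67.6% of NanogWT-only regions, and neither mark was present at 41.7% and 22.0%, or 26.9% and 16.8% at equal list size. The H3K4me1 list was the longer in NanogWT, with 72242 peaks beside 57156 in NanogBiD, and the part of this in the result was not tested. At shared regions away from promoters whose BRG1 summit was at least 2-fold taller in NanogBiD, H3K27ac was in NanogBiD alone at 26.5% (24.4 to 28.7) and in NanogWT alone at 1.73%, whereas at shared regions with a summit equal or taller in NanogWT these shares were 9.37% and 9.44%. FLAG peaks of both arms were present at 97.7% of the former and 79.1% of the latter.

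**Figure D4:**
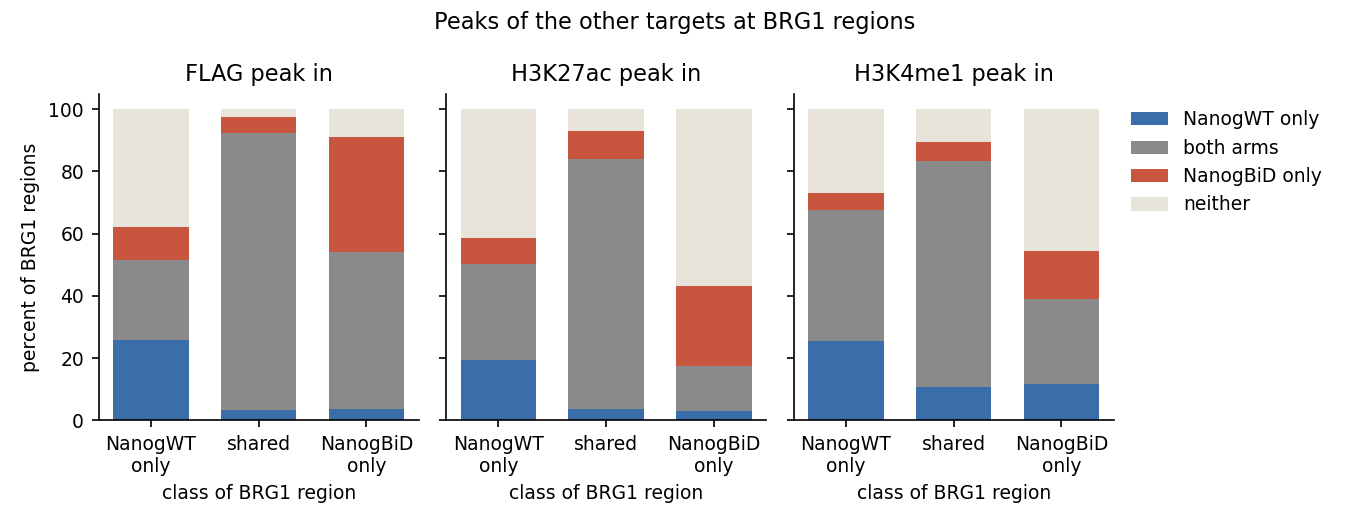
Percent of BRG1 regions of each class that overlap a peak of FLAG-tagged NANOG, H3K27ac or H3K4me1 in NanogWT alone, in both arms, in NanogBiD alone or in neither. FLAG in NanogBiD alone covers 36.8% of NanogBiD-only regions, and 56.8% of those regions have no H3K27ac peak in either arm.

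Motif matches differed between the classes away from promoters. Matches to either strand were sought in the 50 bp on each side of the summit, beside a window of the same length 1 kb downstream. At shared regions the taller summit was used, or that of NanogBiD where heights were equal. The OCT octamer was present at 2.77% (2.57 to 2.98) of 25029 NanogBiD-only summits, 2.05% of 13199 shared summits and 0.651% (0.451 to 0.939) of 4303 NanogWT-only summits. In the windows 1 kb away the shares were 0.655%, 0.735% and 0.627%, so the NanogWT-only summits were at the level of neighbouring sequence. The NANOG core was at 7.77% (7.44 to 8.11) of NanogBiD-only, 4.82% of shared and 2.44% (2.02 to 2.95) of NanogWT-only summits, and 1 kb away at 4.16%, 3.96% and 4.18%. SOX matches were at 18.9%, 15.6% and 12.6%, which was 1.26, 1.11 and 0.939 times the share 1 kb away. Median GC content also differed between these classes, at 42.5%, 45.7% and 47.9% in the same order. Its part in the motif shares was not tested.

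AP-1, the factor family of FOS and JUN known for binding fibroblast enhancers, was above its surroundings in each class. It was at 13.7% (13.1 to 14.3) of shared, 10.4% (10.1 to 10.8) of NanogBiD-only and 7.46% (6.71 to 8.28) of NanogWT-only summits, and 1 kb away at 2.99%, 3.14% and 2.95%. The E-box CAGCTG went the other way, at 9.20% of NanogWT-only, 8.27% of shared and 6.16% of NanogBiD-only summits, beside 5.07%, 4.55% and 4.01%. The C/EBP pattern TTGCNNAA was at 7.2% of NanogBiD-only and 4.74% of NanogWT-only summits, beside 4.34% and 4.0%, and TEAD matches, GGAATG, were at 7.17% and 7.23%, beside 5.74% and 5.25%. Some patterns can overlap one another, and the shorter ones have more matches by their length. Of the 14 patterns searched, the remaining ones were RUNX (TGTGGTT), KLF (GGGTGTG), SP (GGGCGG), ETS (CCGGAAG), NFY (CCAATC or CCAATG), the NRF1 core (GCATGCGC) and the CTCF core (CAGNNGGCG). KLF matches, for the family of the pluripotency factor KLF4, went the way of the E-box, at 3.04% of NanogWT-only, 2.53% of shared and 1.98% of NanogBiD-only summits, beside 2.25%, 2.09% and 1.67%. SP matches were most frequent at shared promoter regions, at 26.3%, beside 14.3% of NanogWT-only and 6.78% of NanogBiD-only promoter regions.

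The NANOG core, the octamer and AP-1 were also counted by FLAG and by the change in BRG1 height. In NanogBiD-only regions away from promoters the NANOG core was at 8.55% of those with FLAG in NanogBiD alone, 7.85% of those with FLAG in both arms and 4.85% of those with no FLAG peak in NanogBiD. The OCT octamer was at 2.90%, 2.88% and 1.87%, and AP-1 at 11.2%, 10.2% and 9.14%. In NanogWT-only regions AP-1 went the other way, at 6.72% (5.42 to 8.29) with FLAG in NanogWT alone, 7.23% (5.84 to 8.90) with FLAG in both arms and 8.02% (6.91 to 9.29) with no FLAG peak in NanogWT, with intervals that overlap. The octamer was there at 1.02%, 1.17% and 0.149%, and the NANOG core at 2.64%, 2.98% and 2.03%, in the same order. In shared regions away from promoters the octamer was at 3.59% of those with a summit at least 2-fold taller in NanogBiD and 1.04% of those with a summit equal or taller in NanogWT, the NANOG core at 8.73% and 2.88%, and AP-1 at 14.9% and 10.8%. The former were searched at the NanogBiD summit and the latter at the NanogWT summit unless heights were equal. These summits lay a median of 97 bp apart over all shared regions, and the part of this choice was not tested. Split by acetylation instead, the NANOG core was at 7.80% of NanogBiD-only regions that had the mark and 7.75% of those that did not. The octamer was at 2.75% and 2.78%, and AP-1 at 9.66% (9.08 to 10.3) and 10.9% (10.4 to 11.4).

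**Figure D5:**
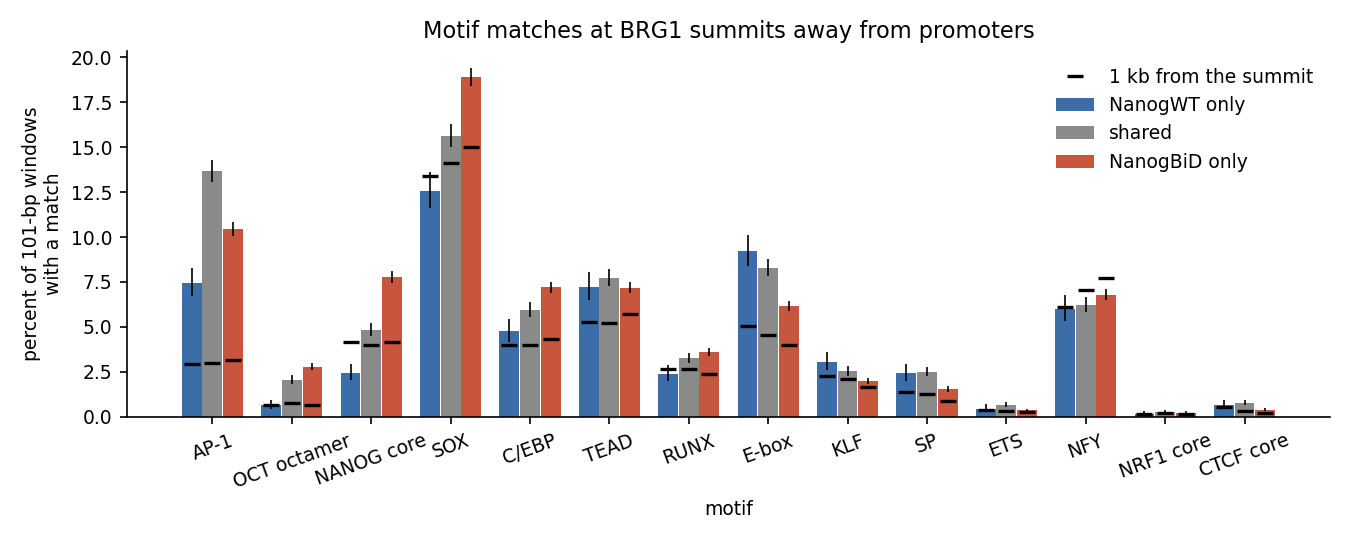
Percent of windows of 50 bp either side of BRG1 summits away from promoters that hold a match to each motif, by class (bars, with Wilson 95% intervals), and the percent in windows 1 kb away (black dashes). AP-1 bars of all classes stand above their dashes, and the OCT octamer and NANOG core bars are lowest in NanogWT-only and highest in NanogBiD-only regions.

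Genes were scored by whether a BRG1 peak overlapped the 2 kb either side of a start site, and by the number of peaks in the gene and 20 kb either side. Of 21728 protein-coding genes, 11031 (50.8%) had a promoter peak in both arms, 1130 (5.2%) in NanogBiD alone and 789 (3.63%) in NanogWT alone. This order turned at equal list size, with 365 in NanogBiD alone and 2259 in NanogWT alone. More peaks in NanogBiD than in NanogWT were found at 42.4% of the genes and fewer at 10.1%, and the sums over genes were 41932 peaks in NanogWT and 59360 in NanogBiD. The sum for NanogBiD was 36165 at equal list size, below that of NanogWT.

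Most fibroblast and mesenchymal genes had a promoter peak in both arms. Of 28 genes, 22 had a promoter peak in both arms, 4 in NanogBiD alone (Col3a1, Pdgfrb, Prrx1 and Zeb2) and 2 in NanogWT alone (Twist2 and S100a4), or 78.6%, 14.3% and 7.14% beside 50.8%, 5.2% and 3.63% of all genes. Col1a1 and Col1a2, the collagen I genes, had tallest summits of 22 and 16 tags in NanogWT and 24 and 16 in NanogBiD, and Thy1 and Pdgfra, surface markers of fibroblasts, 26 and 30 beside 29 and 33. Zeb2, which represses E-cadherin, had no peak in NanogWT and 4 in NanogBiD, up to 24 tags. Fbn1, which encodes the matrix protein fibrillin, had 6 peaks in NanogWT and 12 in NanogBiD, and Cdh2, N-cadherin, 5 and 11. These NanogBiD numbers were 5 and 4 at equal list size, below those of NanogWT. An intronic peak of Fn1, fibronectin, reached 39 tags in NanogBiD with no NanogWT peak there, beside 23 and 25 tags at its start. Over the group, 46.4% of genes had more peaks in NanogBiD and 21.4% had fewer, beside 42.4% and 10.1% of all genes, and the group's 88 peaks in NanogWT stood beside 117 in NanogBiD, or 65 at equal list size. With lists of equal size none of the 28 had a promoter peak in NanogBiD alone and 5 had one in NanogWT alone, beside 1.68% and 10.4% of all genes.

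None of 15 markers of blood, endothelial, muscle, neural and liver cells had a promoter peak in both arms, beside 50.8% of all genes, and 2 (13.3%) had one in NanogBiD alone, beside 5.2%. Ptprc, the pan-leukocyte gene for CD45, had one of 25 tags with FLAG peaks in both arms and H3K27ac in NanogBiD alone, and Tubb3, a neuronal tubulin, one of 13 tags. At equal list size only that of Ptprc was left, 1 of 15 (6.67%), beside 1.68% of all genes. Rbfox3, a neuronal splicing factor, had 9 peaks in NanogWT and 5 in NanogBiD.

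Promoter peaks were counted at 30 pluripotency genes. Of these genes, 7 had a promoter peak in both arms, 5 in NanogBiD alone (Pou5f1, Sall4, Tdgf1, Nr5a2 and Mycn), 3 in NanogWT alone (Tfcp2l1, Sall1 and Sox15) and 15 in neither, or 23.3%, 16.7%, 10% and 50% beside 50.8%, 5.2%, 3.63% and 40.4% of all genes. No peak in the gene or its flanks was found in either arm at 6 of the 30, beside 4415 of 21728 genes. More peaks in NanogBiD were found at 50% of these genes and fewer at 16.7%, again beside 42.4% and 10.1% of all genes, and the group's 30 peaks in NanogWT stood beside 44 in NanogBiD, or 23 at equal list size. At equal list size 1 of the 30 had a promoter peak in NanogBiD alone and 4 in NanogWT alone (3.33% and 13.3%, beside 1.68% and 10.4% of all genes), so the order of the arms turned. The former was Tdgf1, the gene of the Nodal co-receptor Cripto, with 24 tags at -482 bp from a start site. Sall4, a zinc finger factor of embryonic stem cells, had a peak of 11 tags and a score of 63.15 at its start in NanogBiD, where FLAG and H3K27ac peaks were likewise in NanogBiD alone. The other region near it, 13.7 kb from its start in an exon of the neighbour Atp9a, had 23 tags in NanogWT and 16 in NanogBiD. Nr5a2, a nuclear receptor, had 7 tags at its start. Esrrb, another nuclear receptor of the pluripotency network, had 5 peaks in NanogBiD, of 7 to 12 tags, and none in NanogWT, and all 5 were below the score of the equal list. The tallest is the intronic site printed above, which had FLAG and H3K27ac peaks in NanogBiD alone. Dppa5a, a marker of naive embryonic stem cells, had 1 peak, of 10 tags and with an AP-1 match, in NanogBiD alone at -5.18 kb, which was below the score of the equal list. Of the 9 genes that the study took up, a choice that is no independent evidence of a direction, 1 had a promoter peak in both arms, 2 in NanogBiD alone, 1 in NanogWT alone and 5 in neither, beside 50.8%, 5.2%, 3.63% and 40.4% of all genes. At equal list size these counts were 1, 1, 1 and 6.

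The peak at Pou5f1, the gene for OCT4, went against the usual relation of height and score. At chr17:35510754-35515083 it reached 67 tags but scored 70.24, and it was absent in NanogWT. Its summit lay in an intron of Tcf19, 4.50 kb from the nearest Pou5f1 start, and only its edge came within 2 kb of one. The Mycn peak likewise had its summit 2.52 kb from a start. OG2 cells carry an Oct4-GFP reporter and both arms received Oct4, and the part of these in the peak was not tested. At Nanog itself, supplied as a transgene in both arms, an exonic summit had 26 tags in NanogWT and 9 in NanogBiD, a second exonic peak of 16 tags was in NanogWT alone, and an upstream region had 10 and 15. Reads of the transgenes were not separated from those of the endogenous genes, and their part in exonic peaks was not tested. Klf4 had a promoter peak of 23 tags in NanogWT and 22 in NanogBiD, and a further peak of 17 tags in NanogBiD alone. Sox15 had a peak of 19 tags in NanogWT alone in its exon. Sox2, Foxb1 and Olig3 had no BRG1 peak in either arm, and a peak list does not show signal below the caller's limit.

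BAF and PBAF subunit genes were occupied at their promoters in both arms for 24 of 26 (92.3%, beside 50.8% of all genes), with Dpf1 in NanogBiD alone and Smarcd3 in NanogWT alone. These last 2 calls were 3.85% of the group each, beside 5.2% and 3.63% of all genes. With lists of equal size 19 (73.1%) were in both arms, 6 (23.1%) in NanogWT alone and 1 (3.85%) in neither. Of all genes these shares were 44.0%, 10.4% and 43.9%. Smarca4 itself had 4 peaks in each arm, up to 39 and 31 tags. Pbrm1, a subunit of PBAF, had 4 peaks in NanogWT and 11 in NanogBiD, Ss18 2 and 8, and Arid2 4 and 9, where the NanogBiD numbers were 6, 3 and 4 at equal list size. Over the group, 42.3% of genes had more peaks in NanogBiD and 7.69% had fewer, near the shares of all genes. Of the 6 Ss18 peaks found in NanogBiD alone, 5 had summits in introns and 1 beyond the gene, at 8 to 14 tags. The cDNA of the fusion holds part of Ss18, and its part in the peaks at this gene was not tested. The promoter peak of Ss18 had 18 tags in NanogWT and 21 in NanogBiD, and a region at an exon 13 and 17.

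Of 22 AP-1 and TEAD pathway genes, 18 had a promoter peak in both arms (81.8%, beside 50.8% of all genes). Fos, with tallest summits of 48 and 46 tags, and Jun, with 45 and 42, had like values in each arm. Fosl1 had a promoter peak in NanogWT alone, and Ankrd1, a target of YAP and TEAD, in NanogBiD alone, where it had 5 peaks up to 18 tags and none in NanogWT. Each call was 1 of 22 (4.55%), beside 3.63% and 5.2% of all genes. With lists of equal size 4 (18.2%) had a promoter peak in NanogWT alone and 0 in NanogBiD alone, beside 10.4% and 1.68% of all genes. Ankrd1 then had 2 peaks in NanogBiD and none at its promoter. Tead1 had 9 peaks in NanogWT and 15 in NanogBiD, but 7 in NanogBiD at equal list size. More peaks in NanogBiD were found at 59.1% of this group and fewer at 13.6%, beside 42.4% and 10.1% of all genes, and the group's sum of 70 peaks in NanogWT and 97 in NanogBiD was 55 in NanogBiD at equal list size. All 12 cell cycle genes had promoter peaks in both arms, both those that hold division back, such as Cdkn1a and Trp53, and those that drive it or oppose p53, which were Ccnd1, Ccnd2, Ccne1, Myc and Mdm2. So did 70 of 79 ribosomal protein genes, beside 50.8% of all genes.

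Epithelial genes were mostly without promoter peaks, 13 of 20, with 6 in both arms and Grhl2, an activator of epithelial junction genes, in NanogBiD alone with 10 tags. These were 65%, 30% and 5%, beside 40.4%, 50.8% and 5.2% of all genes. With lists of equal size Grhl2 had no promoter peak in either arm, 5 genes had one in both and 1 in NanogWT alone. The latter were 25% and 5%, beside 44.0% and 10.4% of all genes. More peaks in NanogBiD were found at 50% of the epithelial genes and fewer at 5%, beside 42.4% and 10.1% of all genes. The group had 29 peaks in NanogWT and 40 in NanogBiD, or 27 at equal list size. Of 18 germ layer regulators, 4 had a promoter peak in both arms, Mesp1 in NanogBiD alone, and Eomes, Neurog2 and Elf5 in NanogWT alone, or 22.2%, 5.56% and 16.7% beside 50.8%, 5.2% and 3.63% of all genes. Eomes, a T-box factor of mesendoderm, had 3 peaks in NanogWT, of 9 to 14 tags, and none in NanogBiD.

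Regions of a single arm also clustered near some genes. Pde4d, which encodes a cAMP phosphodiesterase, was the nearest protein-coding gene within 100 kb to 36 NanogBiD-only regions, beside 23 shared and 2 NanogWT-only ones, with summits up to 28 tags and FLAG in NanogBiD at 34 of the 36. Ank2, an ankyrin gene, and Pcdh15, a protocadherin gene, followed with 21 regions each, and Foxp1 and Frmd4a with 20. These numbers were not scaled to gene length, and its part in them was not tested. With lists of equal size Pde4d had 21 NanogBiD-only and 9 NanogWT-only regions. The most NanogWT-only regions near 1 gene were 7, at Tmcc3, followed by 6 each at Bcar1, Dst, Eif4g3 and Glis3 and at 4 other genes, and Dst and Glis3 had 12 and 14 NanogBiD-only regions. In bins of 100 kb, the densest NanogBiD-only run was 10 regions at Samsn1 on chromosome 16, and the bin of Zfp703 on chromosome 8 held 9 with no shared region.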

How the data were processed

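CUT&Tag peaks and summits of BRG1, FLAG-tagged NANOG, H3K27ac and H3K4me1 were analysed in 1 merged library for each target and arm, 8 lists in all. The authors trimmed reads with Trim Galore 0.6.4, aligned them to mm10 with Bowtie2 2.4.5, filtered and merged replicates with SAMtools 1.16.1 and called peaks with MACS 1.4.2, keeping 1 tag per position and naming no control library. The deposited score of a peak is the caller's significance, at least 50 in each BRG1 list, and the deposited summit height is the tag pileup, at least 6. The authors scaled neither to depth, which is unknown here, so a deeper library would give more and taller peaks. Merging hides the spread between replicates, so no test between arms and no p-value could be had.

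Regions needed an overlap of 1 bp or adjoining ends. Promoters were the 2 kb either side of GENCODE M21 start sites, and intron, exon and intergenic followed in the summit's annotation. With 1 library per group, a difference was called at 2-fold. The named items were the 5 highest-scoring regions of each class, the 3 largest height ratios each way with at least 20 tags in 1 arm, the 5 genes nearest to most regions of each arm alone (within 100 kb; ties were all counted), and list members with a promoter peak in 1 arm alone or large differences in peak number; some of these items are not reported here. The members and lists were chosen with earlier results of these data known. The 14 motif patterns were matched to the GRCm38 sequence. Python 3.11.15, numpy 2.4.6, pandas 2.3.3, scipy 1.17.1 and pysam 0.24.0 were used, and the region code was tested on 60000 simulated sites with 0 wrong. Alternatives were equal list size, the 10000 highest-scoring peaks of each arm, a lowest score of 100, other overlap rules, promoter widths and motif windows.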

Additional observations from a re-analysis of the deposited data

How the results depend on the processing

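Of 61 alternatives over 16 results, 15 moved the value little, 43 moved it and 3 turned the sign of a difference, in width and height, and the cause was not tested. Shares and counts of 1 class have no sign to turn. The median width in NanogBiD minus NanogWT, -104 bp with all peaks, was 118 bp at equal list size, 2 bp for the 10000 highest-scoring peaks and -172 bp at a score of at least 100. The mean height difference, 0.077 tags, was -0.202 at a score of at least 100, 3.28 at equal list size and 3.39 for the 10000 highest. Under the same 3 settings (score of at least 100, equal size, 10000 highest), the promoter share in NanogWT minus NanogBiD went from 14.2 percentage points to 22.4, 8.09 and 20.5, the share of NanogBiD-only regions from 48.4% to 50.6%, 27.4% and 27.8%, that of NanogWT-only regions from 9.91% to 7.14%, 26.9% and 27.8%, and the mean log2 height ratio elsewhere minus promoter from 0.32 to 0.33, 0.41 and 0.40. The median log2 ratio, 0.14, was 0.093 at a score of at least 100 and 0.20 at equal size, and with scores in place of heights these 2 ratios were 0.24 and 0.40. The share of NanogBiD-only regions was 53.7% with summit windows reaching 100 bp each way, 47.9% with gaps of 500 bp merged and 50.2% when 50% of both peaks had to overlap, and that of NanogWT-only regions 19.3%, 9.48% and 13.2%. Of the 10000 highest-scoring peaks, 99.1% in NanogWT and 82.7% in NanogBiD were matched, 95.6% and 76.1% under the 50% rule, and 73.3% and 61.2% with summit windows. FLAG at NanogBiD-only regions, 87.4%, was 91.8% at a score of at least 100, 98.5% at equal size and 70.8% with summit windows, and H3K27ac, 40.1%, was 41.4%, 57.3% and 31.6%. The excess of NanogBiD-only over NanogWT-only summits was 2.98 percentage points for AP-1, 2.12 for the OCT octamer and 5.33 for the NANOG core, 1.55, 1.001 and 2.50 within 25 bp of the summit, and 2.43 and 6.54 for the last 2 at equal size. With the stricter letters TGACTCA, chosen after seeing the data, that of AP-1 was 1.61. Genes with a promoter peak in NanogBiD alone went from 1130 to 365 at equal size and in NanogWT alone from 789 to 2259, which turned their order. No paired analysis was possible because the arms hold 1 library each without replicate numbers, and for the same reason no replicate could be left out. Depth limits the lists at their low end, where a missing peak is no evidence of missing binding.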
